A study of Homo sapiens with 9 samples.

Results

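The serpin family was followed in Huh-7 tumours that had received a control vector or a vector for the liver transcription factor HNF4A. Members were the genes whose symbol is SERPIN followed by a letter from A to I and a number. The rule used no measured value and found 35 of the 50868 genes in the deposited table. Huh-7 is a human hepatocellular carcinoma line, and its cells were grown under the skin of NOD/SCID mice. These mice lack functional T and B cells. Once a tumour reached about 100 mm3, adenovirus was put into it every 4 days over 8 days. The 3 groups were Ad-GFP (the control, with green fluorescent protein), Ad-HNF4A (HNF4A) and Ad-K458R (HNF4A with the K458R change). The labels give the genotype as WT in all 9 samples, and the tumour line, host strain and vector type were the same in all groups. Each group had 3 libraries of oligo(dT)-selected RNA, 9 in all. The labels do not say whether the 3 tumours of a group came from separate mice, so each p-value reflects only how far these libraries differ, which may be partly technical. All 9 libraries come from 1 cell line, and HNF4A was delivered at levels far above those of the control tumours.

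Serpins are a family of proteins that share a common fold. Most of them trap a serine protease: the protease cuts an exposed loop of the serpin, the loop inserts into the body of the serpin, and the protease is left bound and inactive. The liver secretes many of them into plasma, where they restrain clotting, fibrinolysis, complement and leukocyte proteases, while the B clade stays mostly inside cells. A few members inhibit nothing and carry hormones or assist collagen folding instead.

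Levels are given in CPM, a gene's count relative to the TMM-scaled total of its library, which compares libraries within a gene. Library totals ran from 15933702 to 23171796 counts. HNF4A mRNA, the check of the vectors, was at 154, 169.6 and 183 CPM in the Ad-GFP libraries. It was at 3699.8, 3507 and 5391 CPM in Ad-HNF4A and at 5412, 4999 and 5489 CPM in Ad-K458R. The 9 hepatocyte markers include HNF4A itself, and none was at 0. Without HNF4A (a choice made after the data were seen) the other 8, of which AFP and APOB were highest, summed to 28970 to 30209 CPM in Ad-GFP, 29578 to 31788 CPM in Ad-HNF4A and 27044 to 27703 CPM in Ad-K458R. The Ad-K458R sums were below those of both other groups. By edgeR's quasi-likelihood test, none of the 9 was lower at an adjusted p under 0.05 in any comparison. Besides HNF4A, APOA1 was higher than in Ad-GFP in Ad-HNF4A and in Ad-K458R (adjusted p = 0.0095 and 0.047). The share of all genes under that threshold, in either direction, was 3.46% and 3.56%. Mouse cells are part of such a tumour. The sources used here do not give how reads from them were handled. Ad-HNF4A library 3 stood apart from its group for many serpins. A tumour with fewer cells of a type and one with less RNA per cell cannot be told apart in these bulk libraries.

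The family's place in the tumours was set by a single gene. Serpins together took 0.284% ± 0.013 (SD, n = 3) of all counts in Ad-GFP, 0.312% ± 0.015 in Ad-HNF4A and 0.314% ± 0.0049 in Ad-K458R. SERPINA1, alpha-1 antitrypsin, the main inhibitor of neutrophil elastase in plasma, held 56.5% to 66.6% of the serpin counts of a library. Without it the family took 0.115% ± 0.0076, 0.122% ± 0.010 and 0.131% ± 0.0051 of counts. SERPINA1 itself was at 1819, 1696 and 1632 CPM in Ad-GFP, at 1776, 1733 and 2180.2 CPM in Ad-HNF4A and at 1738, 1866 and 1841 CPM in Ad-K458R. These ranges overlap between all groups.

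Between genes, levels were ordered by the deposited FPKM, which divides by gene length. SERPINA1 led with a mean of 153 ± 14 FPKM (SD over the 9 libraries). Well below it came SERPINB1 (33.5 ± 1.3), an intracellular inhibitor of neutrophil proteases, SERPIND1 (26.1 ± 2.0), heparin cofactor II, and SERPINA6 (25.3 ± 3.0), the cortisol carrier of plasma. SERPIND1 and SERPINA6 do not differ beyond their spread. SERPINF2 (19.8 ± 1.5), the plasmin inhibitor alpha-2 antiplasmin, was lower than both in each of the 9 libraries. SERPINC1 (14.4 ± 5.3), SERPINH1 (14.0 ± 3.6) and SERPINA5 (13.8 ± 2.0) could not be ordered, and SERPINB6 (7.62 ± 0.72) closed the first 10. The length behind the deposited FPKM was 0.44 to 2.75 times the summed exons of GENCODE 29 for the serpins. With exon length in its place, SERPINA1 still led and 9 of the first 10 were shared, while SERPINB6 fell to rank 17.

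**Figure D1:**
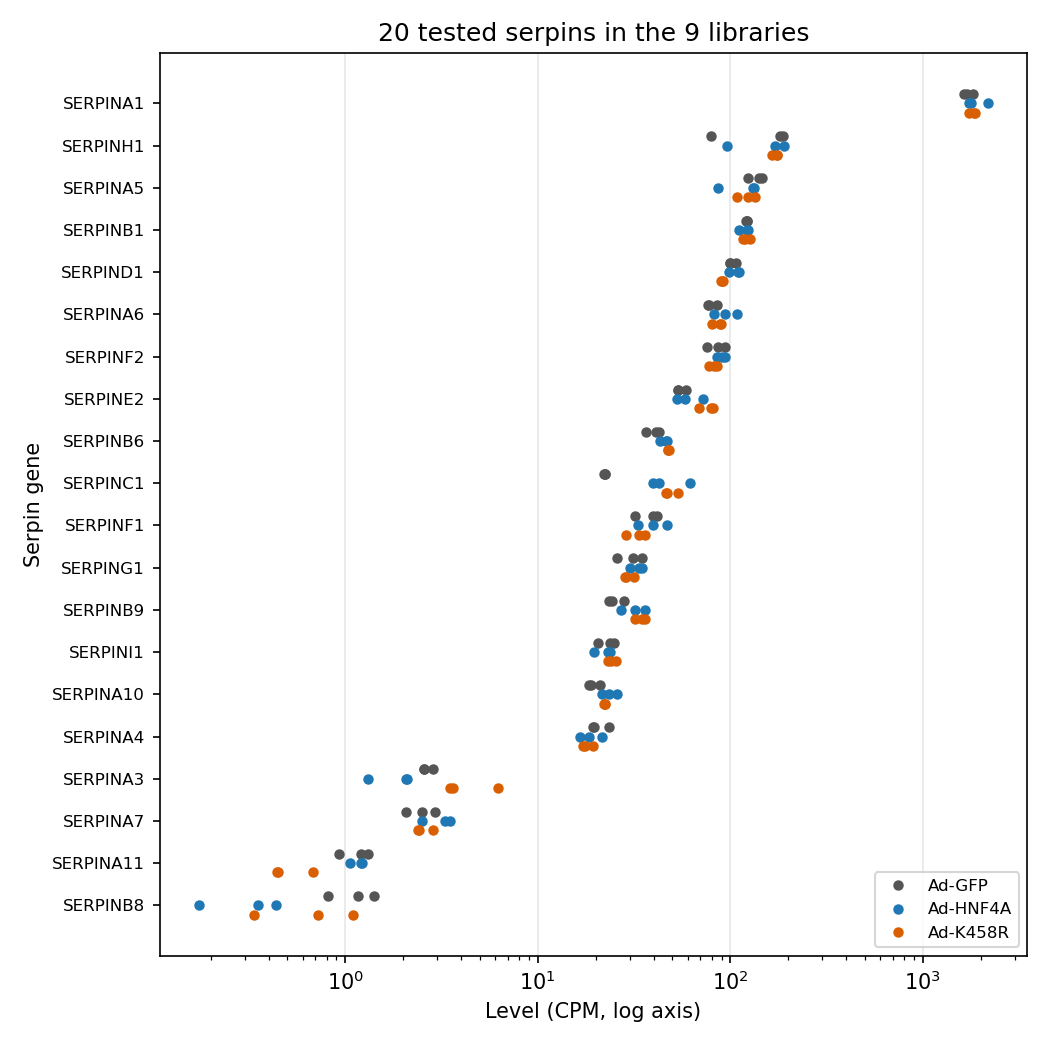
Level of 20 of the 21 tested serpins in each of the 9 libraries, in CPM on a log axis, ordered by mean CPM. Each point is 1 library; SERPINA1 lies at 1632 to 2180.2 CPM, and the Ad-GFP points of SERPINC1 stand apart to the left of the 6 others.

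A filter on low counts left 21 serpins among the 16697 genes tested. Of the other 14, 5 had no count in any library: SERPINA9, SERPINB10, SERPINB11, SERPINB12 and SERPINE3. Over the 173340316 counts of the 9 libraries, 0 counts allow a level of up to 0.0173 CPM (3 counts, counting error only). The remaining 9 (SERPINA2, SERPINA12, SERPINB2, SERPINB3, SERPINB4, SERPINB5, SERPINB7, SERPINB13 and SERPINI2) had 3 to 23 counts in all, against at least 130 for every tested serpin. SERPINI2, pancpin, had 6, 4 and 1 counts in Ad-GFP, 0, 0 and 1 in Ad-HNF4A and 0, 0 and 1 in Ad-K458R. Relative to depth, its control count was 9.3 times that of Ad-HNF4A (exact 95% interval 1.35 to 400) and 10.2 times that of Ad-K458R (1.48 to 438), which covers counting error only. That gene was singled out after its counts were seen. SERPINB3 and SERPINB4 are near-identical neighbours, so their few reads cannot be assigned to either with confidence.

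Of the 14 serpins that were not tested, 9 lie on chromosome 18, with 3 of the 5 that had no count among them. Another 3 lie on chromosome 14. On GRCh38, 10 serpins share a stretch of chromosome 18 (63476761 to 64005667) that holds much of the B clade, including the squamous cell antigens SERPINB3 and SERPINB4 and the keratinocyte serpins SERPINB7, SERPINB12 and SERPINB13. Only SERPINB8 passed the filter there, and the stretch held 0.0324% of serpin counts. The other large cluster, on chromosome 14 (94280455 to 94624055), also has 10 members, of which 7 were tested, and it held 68.1% of serpin counts. It runs from SERPINA10 through SERPINA6, SERPINA1 and SERPINA11 to SERPINA4, SERPINA5 and SERPINA3. Another group of B-clade genes, SERPINB1, SERPINB9 and SERPINB6 on chromosome 6 (2832332 to 2972165), was tested in full and held 6.42%. Within each cluster, neighbours differed widely: SERPINA1 lies beside SERPINA2, which had 23 counts in all. Markers of keratinocytes summed to 35.2 to 40.8 CPM over all libraries. Most of that was DSG3 and KRT10, with means of 23.2 and 6.58 CPM in Ad-GFP. IVL and KRT1 had 14 and 15 counts in all.

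**Figure D2:**
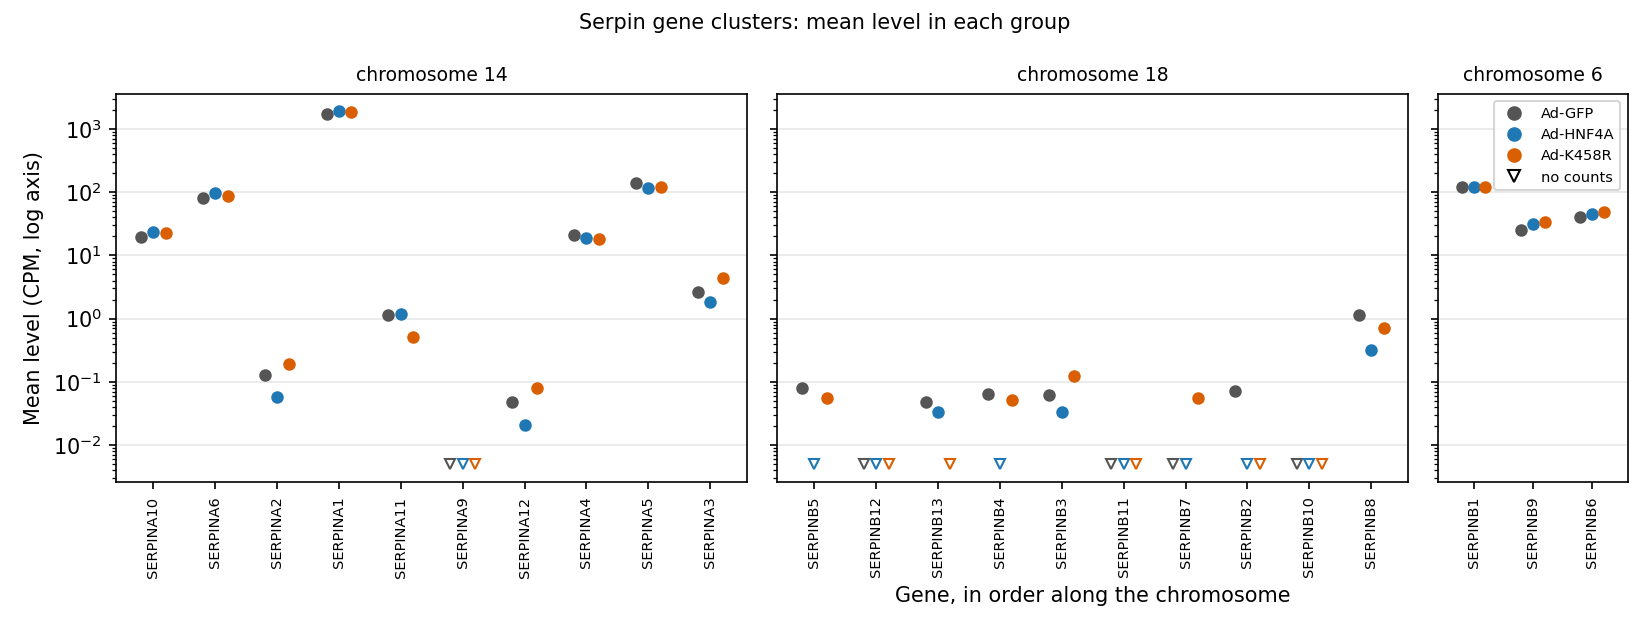
Mean level of the clustered serpins in each group (CPM, log axis; n = 3 per group), in their order along chromosomes 14, 18 and 6. Open triangles mark groups without a count; SERPINB8 is the single tested gene of the chromosome 18 cluster, against 7 of 10 on chromosome 14.

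Some serpin loci overlap other genes, and the labels do not state that counting used strand. SERPIND1 lies wholly inside PI4KA on the opposite strand, and PI4KA had 18295 counts in all. SERPINA4 and SERPINA5 share 8472 bases on the same strand. SERPINA3 and SERPINA5 overlap the unnamed gene AL049839.2, which had 555 counts. Reads in such stretches may have been split between the genes, so values of these 4 serpins are less certain.

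In Ad-HNF4A against Ad-GFP, 1 of the 21 tested serpins was called by edgeR's quasi-likelihood test at an adjusted p under 0.05 (Benjamini-Hochberg over all genes tested), which is 4.76%, against 3.46% of all genes. It was SERPINC1, and it was higher. In Ad-K458R against Ad-GFP, 2 serpins were called, SERPINC1 and SERPINE2, both higher (9.52%, against 3.56% of all genes). Both shares rest on 1 or 2 genes, and 1 gene alone is 4.76% of the 21. The Ad-HNF4A share lies near that over all genes and the Ad-K458R share above it, which was not tested. The 2 comparisons share the Ad-GFP libraries. In Ad-K458R against Ad-HNF4A none was called by edgeR, limma-voom or limma-trend, and 1 (SERPINA3) by DESeq2, against 0.0120% of all genes with edgeR and 0.359% with DESeq2.

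At an unadjusted p under 0.05 the counts were larger. There were 6 serpins in Ad-HNF4A against Ad-GFP (5 higher, 1 lower; 28.6%, against 16.6% of all genes), 8 in Ad-K458R against Ad-GFP (6 higher, 2 lower; 38.1%, against 14.0%) and 6 in Ad-K458R against Ad-HNF4A (4 higher, 2 lower; 28.6%, against 8.74%). Serpins whose libraries did not overlap between the groups numbered 5 (23.8%, against 21.4% of all genes), 9 (42.9%, against 23.7%) and 5 (23.8%, against 14.4%) in the same order. The shares at an unadjusted p are above those over all genes, and the list as such was not tested. The median log2 fold change of the tested serpins was 0.07, 0.07 and 0.02, beside 0.0058, -0.0041 and -0.0033 over all genes. The median size of change regardless of direction was 0.14, 0.20 and 0.14, beside 0.14, 0.13 and 0.12.

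**Figure D3:**
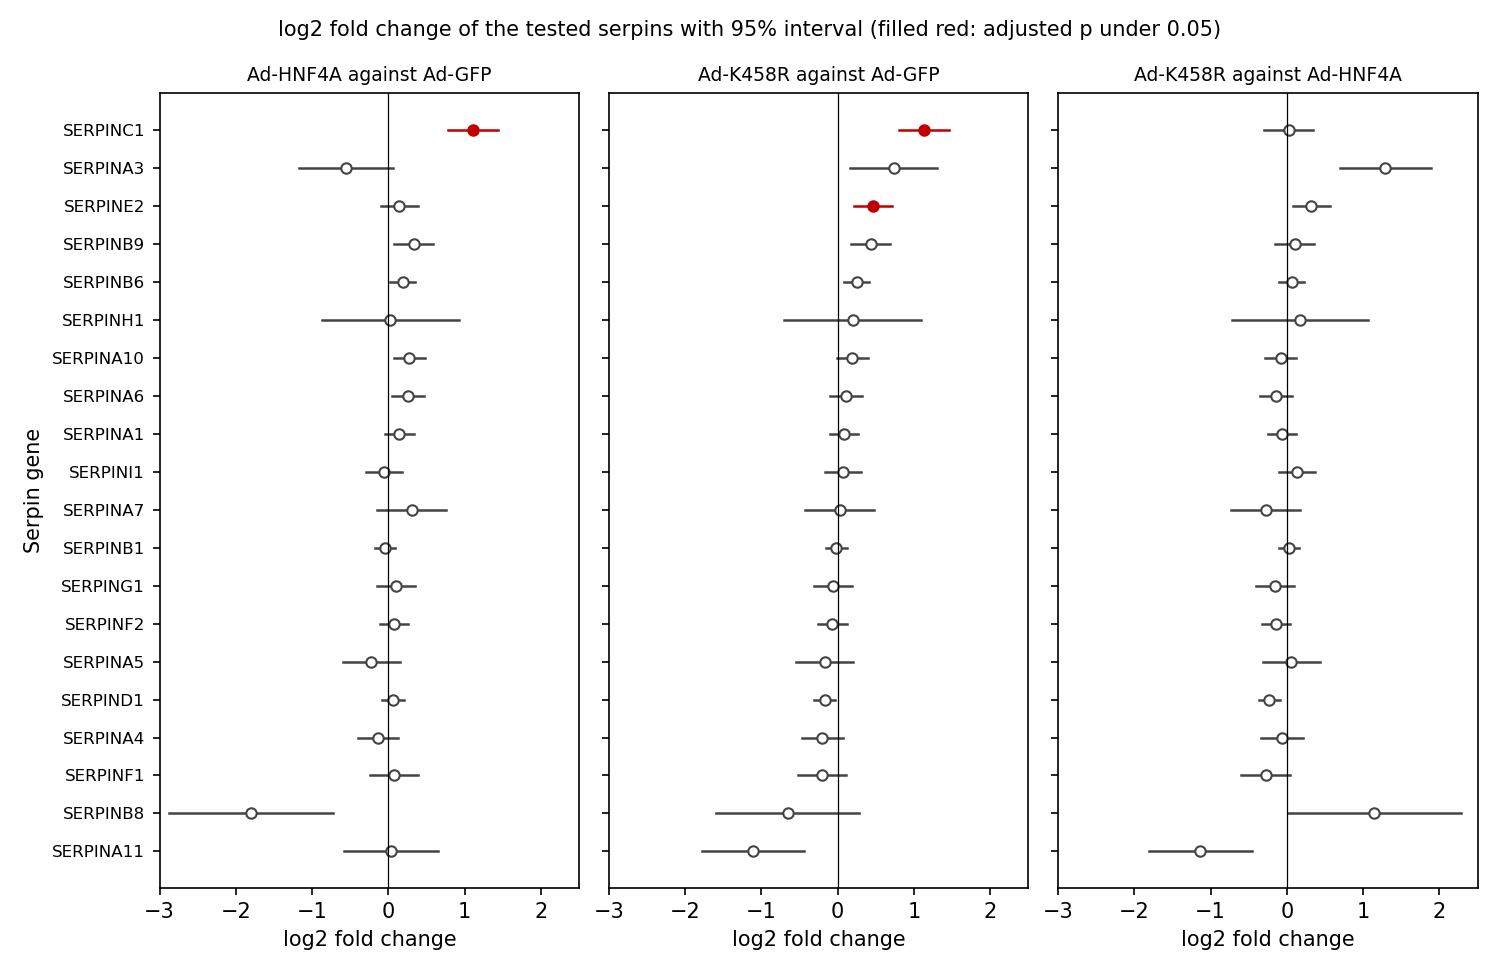
log2 fold change of 20 of the 21 tested serpins in the 3 comparisons, with 95% intervals from the edgeR fit; red points passed the adjusted threshold. SERPINC1 stands near 1.1 in both comparisons with Ad-GFP and near 0 between the vectors.

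SERPINC1 (ENSG00000117601, chromosome 1, 173903804 to 173917378, minus strand) encodes antithrombin, the heparin-dependent inhibitor of thrombin and factor Xa that the liver secretes. It was at 22.4, 22.1 and 22.3 CPM in Ad-GFP. It was at 42.5, 39.8 and 61.7 CPM in Ad-HNF4A and at 53.4, 47.1 and 46.1 CPM in Ad-K458R. The 3 control libraries lay almost on top of each other, and each of the 6 vector libraries was above them, at 1.79 to 2.77 times their mean. The rise was 1.11 ± 0.15 (log2, SE; 2.16-fold) in Ad-HNF4A with an adjusted p of 0.0021 in edgeR, and 1.13 ± 0.15 (2.19-fold) in Ad-K458R with an adjusted p of 0.0015. Between the vectors the difference was 0.02 ± 0.15, with a 95% interval of -0.30 to 0.35 and an adjusted p of 0.98. SERPINC1 was called in all 16 alternative fits of each comparison with Ad-GFP. Without the high Ad-HNF4A library 3 its rise there was 0.88, with an adjusted p of 0.00057.

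The clotting serpins SERPIND1, SERPINA5 and SERPINA10 did not pass the test. SERPIND1, heparin cofactor II, which inhibits thrombin, was at 107, 99.9 and 99.3 CPM in Ad-GFP, 98.8, 109.8 and 110.4 CPM in Ad-HNF4A and 90.7, 91.7 and 89.5 CPM in Ad-K458R. Every Ad-K458R library was below every other library, with a log2 difference of -0.17 ± 0.06 from Ad-GFP (adjusted p = 0.24) and -0.23 ± 0.06 from Ad-HNF4A (adjusted p = 0.38), both from edgeR. SERPINA5, protein C inhibitor, was at 146, 141 and 124 CPM in Ad-GFP, 133, 132 and 86.3 CPM in Ad-HNF4A and 124, 108 and 134 CPM in Ad-K458R, so its groups overlapped. SERPINA10, the inhibitor of factor Xa that works with protein Z, had mean levels of 19.5 ± 1.4, 23.5 ± 2.1 and 22.3 ± 0.081 CPM. All 6 vector libraries of SERPINA10 were above the controls, with adjusted p of 0.17 and 0.39 in edgeR.

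Promoter sequences of the tested serpins with an HNF4 element are shown because HNF4A is the factor delivered. RefSeq windows of 250 bases before to 50 after a start (GRCh38.p14) were matched by symbol for 27 of the 35 serpins, in 41 windows. SERPINC1 was not among the 27. The element searched was CAAAGNNCA on both strands, and 8 serpin windows of 8 genes held it, against 5.28% of the 35116 windows of all genes. Of these 8 genes, 4 were tested, and edgeR called none in any comparison: SERPIND1, SERPINA10, SERPINA3 and SERPINA7. Capitals mark the match, which begins at position -43, -97, -195 and -169 from the start in that order. It reads on the given strand in SERPIND1 and SERPINA7, and as its reverse complement in the others. The stretches are chr22:20774035-20774112 (plus strand), chr14:94293322-94293400 (minus strand), chr14:94612161-94612239 (plus strand) and chrX:106038853-106038931 (minus strand).
SERPIND1: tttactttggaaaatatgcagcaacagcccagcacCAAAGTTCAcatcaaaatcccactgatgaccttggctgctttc
SERPINA10: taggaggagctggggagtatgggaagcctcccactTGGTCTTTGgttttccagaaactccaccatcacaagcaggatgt
SERPINA3: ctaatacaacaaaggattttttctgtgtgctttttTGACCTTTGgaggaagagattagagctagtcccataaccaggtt
SERPINA7: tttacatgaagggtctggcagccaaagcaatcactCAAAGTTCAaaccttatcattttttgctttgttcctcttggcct
The vector libraries of SERPINA10 were all above its controls, the Ad-K458R libraries of SERPIND1 were below all others, SERPINA3 was lowest in Ad-HNF4A and highest in Ad-K458R, and SERPINA7 overlapped between all groups. Whether the 4 genes differ from each other was not tested. The HNF1 element GTTAATNAT was in 0.792% of all windows and in 2 serpin windows, those of SERPINA4 and SERPINI2. In SERPINA4 it begins at position -75, in chr14:94561332-94561410 (plus strand).
SERPINA4: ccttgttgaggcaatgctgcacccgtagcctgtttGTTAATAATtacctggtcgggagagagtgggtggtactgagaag
SERPINA4, the tissue kallikrein inhibitor kallistatin, was at 20.7 ± 2.3, 18.9 ± 2.6 and 18.1 ± 1.1 CPM, with overlapping groups. Both windows of SERPINE2 lacked the letters of either element. A match is a description of letters, not a site shown to be bound.

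SERPINE2 (ENSG00000135919, chromosome 2, 223975112 to 224039319, minus strand) encodes protease nexin-1, a cell-surface inhibitor of thrombin and of plasminogen activators. It was at 53.7, 59.0 and 53.5 CPM in Ad-GFP, 58.5, 72.2 and 52.9 CPM in Ad-HNF4A and 81.1, 79.2 and 69.2 CPM in Ad-K458R. The Ad-K458R libraries lay above all controls, while the Ad-HNF4A libraries overlapped both other groups. In Ad-K458R it rose by 0.47 ± 0.11 (log2, SE; 1.38-fold) over Ad-GFP, with an adjusted p of 0.046 in edgeR. The difference was 0.14 ± 0.11 in Ad-HNF4A (adjusted p = 0.57) and 0.32 ± 0.11 between the vectors (unadjusted p = 0.015, adjusted p = 0.49), so a difference between the vectors was not shown. The call is a narrow one. SERPINE2 stayed called in 10 of 16 alternatives and was lost with limma-trend (adjusted p = 0.069). It was also lost when any of the Ad-GFP libraries 1, 2 or 3 or Ad-K458R library 1 or 2 was left out, with adjusted p from 0.084 to 0.18. Without Ad-K458R library 3 the adjusted p was 0.048.

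SERPINF2, which inhibits plasmin directly, was at 94.3, 86.4 and 75.7 CPM, then 94.3, 85.0 and 90.4 CPM, then 81.9, 85.0 and 77.7 CPM in Ad-GFP, Ad-HNF4A and Ad-K458R. Its groups overlapped.

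SERPINE2 is also made by fibroblasts and endothelium. The 8 fibroblast markers summed to 104 to 110 CPM in Ad-GFP, 114 to 127 CPM in Ad-HNF4A and 112 to 126 CPM in Ad-K458R. None was at 0, and 1 of 6 tested (COL6A1) was called higher in each comparison with Ad-GFP. Means of COL6A1 were 11.6, 22.8 and 26.4 CPM in that order. LUM, at 30.2, 29.1 and 26.6 CPM, and PDGFRB, at 13.5, 11.4 and 10.8 CPM, had lower means in both vector groups. The 7 endothelial markers summed to 38.9 to 42.1, 48.1 to 58.9 and 41.4 to 48.0 CPM. Most of that sum was PECAM1, with means of 39.9, 50.6 and 42.1 CPM, which was not called. VWF was called higher among 2 tested, and KDR was at 0 in every library. CDH5, CLDN5, ERG and TEK had 7, 5, 3 and 2 counts in all. The part of these cells in the values of SERPINE2 was not tested.

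**Figure D4:**
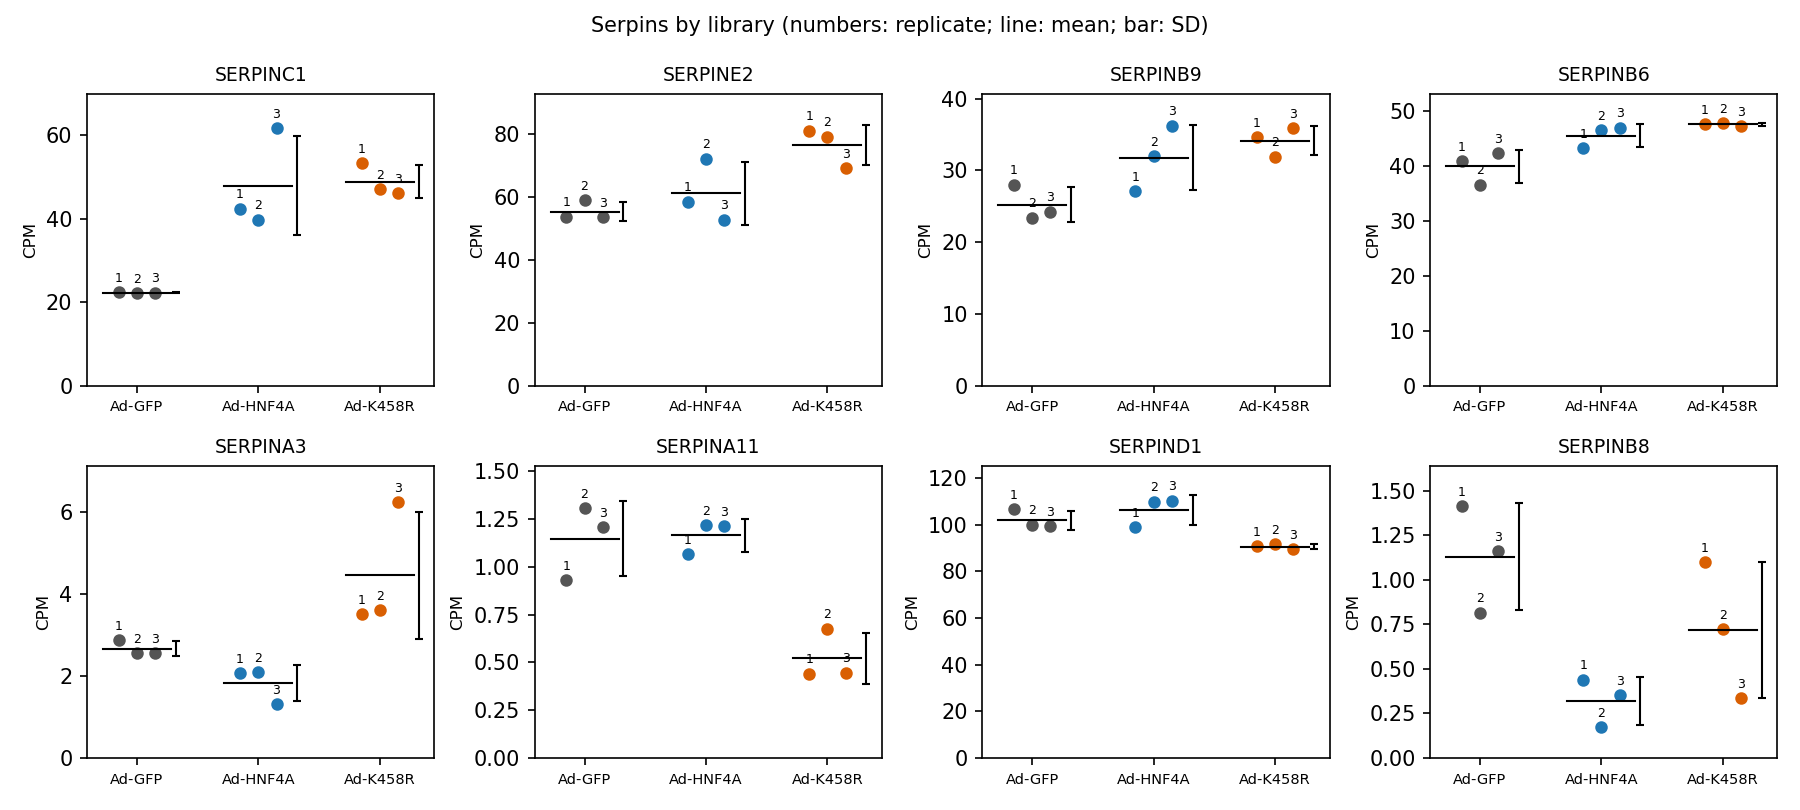
CPM of 8 serpins in each library (numbers are replicates, the line is the mean and the bar the SD, n = 3 per group; axes start at 0). SERPINC1 is the one whose 6 vector libraries all stand at 1.79 or more times the control mean. SERPINC1, SERPINE2, SERPINB9, SERPINB6 and SERPINA3 have their highest means in Ad-K458R.

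Among the inhibitors of leukocyte proteases, edgeR called no gene, and DESeq2 called SERPINB9 in Ad-K458R against Ad-GFP (against 4.60% of all genes) and SERPINA3 between the vectors. SERPINA3, alpha-1 antichymotrypsin, an acute phase inhibitor of cathepsin G, had the largest log2 difference between the vectors. It was at 2.87, 2.56 and 2.56 CPM in Ad-GFP, 2.07, 2.09 and 1.31 CPM in Ad-HNF4A and 3.52, 3.61 and 6.25 CPM in Ad-K458R. The 3 groups did not overlap, with the controls in between. The log2 difference between the vectors was 1.29 ± 0.27 (2.45-fold), with an unadjusted p of 0.00062 and an adjusted p of 0.28 in edgeR, and an adjusted p of 0.021 in DESeq2. Without Ad-K458R library 3 the difference was 0.98 (adjusted p = 0.64), and without Ad-HNF4A library 3 it was 1.09 (adjusted p = 0.44). Against Ad-GFP it was -0.56 ± 0.28 in Ad-HNF4A (adjusted p = 0.35) and 0.74 ± 0.26 in Ad-K458R (adjusted p = 0.20). SERPINA1 differed by 0.14 ± 0.08 and 0.08 ± 0.08 from Ad-GFP, with 95% intervals of -0.04 to 0.33 and -0.10 to 0.27 and adjusted p of 0.43 and 0.75. Without Ad-HNF4A library 3 the difference of SERPINA1 in Ad-HNF4A was 0.03 (adjusted p = 0.86).

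SERPINB1, SERPINB6 and SERPINB9 lie side by side on chromosome 6 and act inside cells on neutrophil and lymphocyte proteases. SERPINB9, the granzyme B inhibitor, was at 28.03, 23.4 and 24.3 CPM in Ad-GFP, 27.1, 31.98 and 36.2 CPM in Ad-HNF4A and 34.6, 31.9 and 35.9 CPM in Ad-K458R. The Ad-K458R libraries were above all controls, with a log2 difference of 0.43 ± 0.11 and an adjusted p of 0.075 in edgeR, and 4 of 16 alternatives called it. In Ad-HNF4A the difference was 0.33 ± 0.12 (adjusted p = 0.17), and 0.23 without Ad-HNF4A library 3 (adjusted p = 0.43). SERPINB6 was at 40.9, 36.6 and 42.4 CPM, then 43.2, 46.5 and 47.0 CPM, then 47.6, 47.8 and 47.3 CPM. Its vector libraries were above its controls, with adjusted p of 0.24 and 0.13. SERPINB1 was the steadiest of the 3, at 121, 122 and 123 CPM in Ad-GFP, 110.4, 122 and 123 CPM in Ad-HNF4A and 117, 119 and 126 CPM in Ad-K458R. SERPINB8, a furin inhibitor, was near the limit of detection, at 1.41, 0.82 and 1.16 CPM, then 0.44, 0.17 and 0.35 CPM, then 1.099, 0.72 and 0.34 CPM. All its Ad-HNF4A libraries were below the controls, with a log2 difference of -1.81 ± 0.49 and an adjusted p of 0.078 in edgeR, which was 0.042 with no filter on low counts.

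Leukocyte markers moved in these tumours as well. Of 11 macrophage and monocyte markers, 9 were tested, and 4 were called higher in Ad-HNF4A and 5 in Ad-K458R, where edgeR called 3.46% and 3.56% of all genes. Their summed level was 318 to 351 CPM in Ad-GFP, 257 to 360 CPM in Ad-HNF4A and 309 to 345 CPM in Ad-K458R, and CD163 and TYROBP were at 0 in the controls. LYZ, lysozyme, made up most of that sum, with means of 314, 286 and 281 CPM. The other 10, a set formed after the values were seen, summed to 18.6 to 21.5, 33.1 to 39.96 and 42.1 to 45.1 CPM, so both vector groups lay above the controls. Of 8 neutrophil markers, 3 were tested, and LTF and S100A9 were called higher in both. Their sums were 7.74 to 9.71, 11.96 to 21.5 and 20.0 to 23.8 CPM, with CXCR2 and ELANE at 0 throughout. The 5 platelet markers were never above 0.54 CPM in sum. The part of these cells in the values of SERPINB9 and SERPINB6 was not tested.

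Among the hormone carriers and the remaining plasma serpins, edgeR and DESeq2 called none, and limma-trend called SERPINA11. SERPINA6, the cortisol carrier, was at 85.4, 77.5 and 76.6 CPM in Ad-GFP, 94.1, 82.7 and 109 CPM in Ad-HNF4A and 88.8, 80.7 and 89.3 CPM in Ad-K458R. In Ad-HNF4A the log2 difference was 0.25 ± 0.10 with an adjusted p of 0.22 in edgeR, and 0.15 without Ad-HNF4A library 3 (adjusted p = 0.50). SERPINA7, which carries thyroxine, was at 2.499 ± 0.42, 3.09 ± 0.53 and 2.55 ± 0.25 CPM, with no separation. SERPINA11, whose function is little known, was at 0.93, 1.31 and 1.21 CPM in Ad-GFP, 1.06, 1.22 and 1.21 CPM in Ad-HNF4A and 0.44, 0.68 and 0.45 CPM in Ad-K458R. All Ad-K458R libraries of SERPINA11 were below all others. The log2 difference was -1.11 ± 0.30 from Ad-GFP (adjusted p = 0.088 in edgeR, 0.029 in limma-trend) and -1.14 ± 0.31 from Ad-HNF4A (adjusted p = 0.37). It rests on 31 counts in Ad-K458R against 70 and 62 in Ad-GFP and Ad-HNF4A. SERPING1, the C1 inhibitor of complement and contact activation, was at 30.6 ± 4.6, 32.8 ± 2.5 and 29.4 ± 1.8 CPM. SERPINF1, the antiangiogenic factor PEDF, which inhibits no protease, was at 37.8 ± 5.2, 39.8 ± 6.8 and 32.8 ± 3.6 CPM. SERPINI1, neuroserpin, an inhibitor of tissue plasminogen activator, was at 23.1 ± 2.3, 22.2 ± 2.2 and 24.3 ± 1.2 CPM. Groups of these 3 genes overlapped in every comparison.

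SERPINH1, the collagen chaperone HSP47 of the endoplasmic reticulum, varied more within groups than between them. It was at 188, 79.4 and 181 CPM in Ad-GFP, 190.5, 170.4 and 95.9 CPM in Ad-HNF4A and 175, 164 and 176 CPM in Ad-K458R. Ad-GFP library 2 and Ad-HNF4A library 3 were low, and the other 7 lay between 164 and 190.5 CPM. The log2 differences carried standard errors of 0.38 in every comparison, and adjusted p ran from 0.89 to 0.99 in edgeR. The 12 tested collagens and collagen-modifying enzymes of its list summed to 717 and 688 CPM in those 2 libraries, within or at the edge of the 688 to 750 CPM seen over all 9. Their level was thus not low in Ad-GFP library 2. In Ad-HNF4A library 3, 7 of the 12 were the lowest of their group, beside 3 in Ad-GFP library 2 and 6 in Ad-GFP library 1. The sum in Ad-HNF4A library 3 was almost the same as in Ad-K458R library 2 (688.2 CPM), where SERPINH1 was not low.

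Ad-HNF4A library 3 was at an end of the range for many serpins. It was the highest of the 9 for SERPINA1, SERPINA6, SERPINA10, SERPINB9, SERPINC1 and SERPIND1. It was the lowest for 6, with SERPINA3, SERPINA4, SERPINA5, SERPINE2 and SERPINI1 among them. These 12 are 57.1% of the tested serpins, beside 27.6% of all tested genes. Without it the log2 difference of SERPINA5 in Ad-HNF4A went from -0.23 to -0.05 and that of SERPINE2 from 0.14 to 0.24, and SERPINC1 was still the single serpin called there. In the other 8 libraries the share of serpins at an end ran from 4.76% to 28.6%, beside 13.6% to 31.9% of all tested genes. Over all tested genes, Ad-HNF4A library 1 had the largest share (31.9%), above Ad-HNF4A library 3. This library also had the highest HNF4A mRNA of its group, at 5391 CPM against 3699.8 and 3507, a level near those of Ad-K458R. Whether the 2 go together was not tested.

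**Figure D5:**
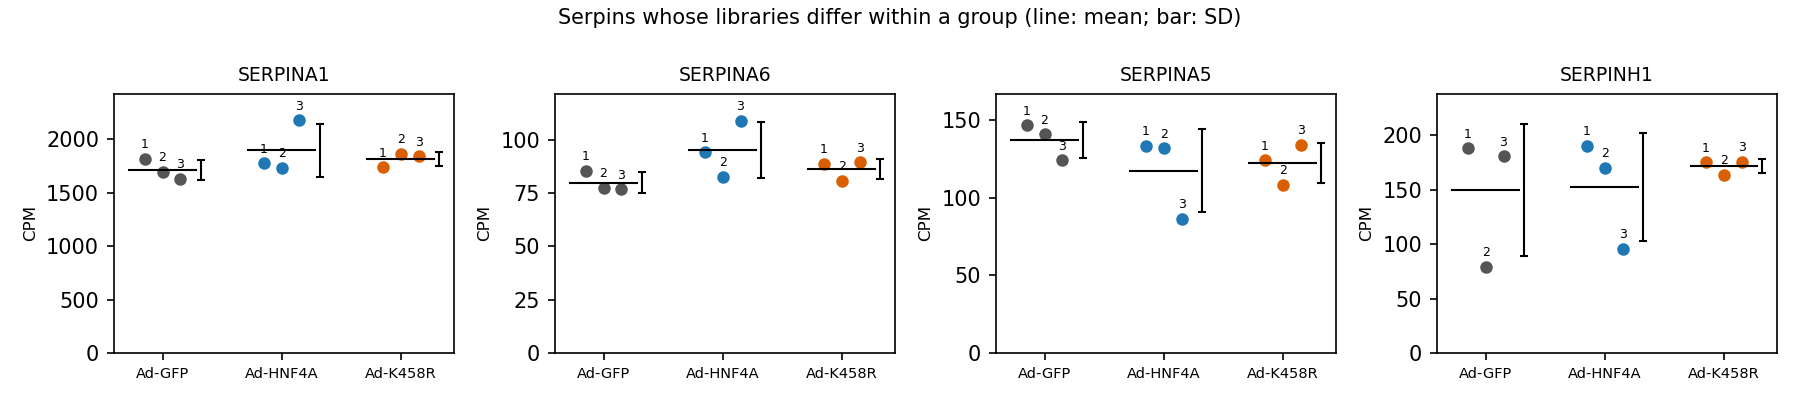
CPM of SERPINA1, SERPINA6, SERPINA5 and SERPINH1 in each library (numbers are replicates, the line is the mean and the bar the SD, n = 3 per group; axes start at 0). Ad-HNF4A library 3 is highest for SERPINA1 and SERPINA6 and lowest for SERPINA5, and 2 libraries are low for SERPINH1.

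The proteases and partners of serpins were read from 11 lists of 106 genes, of which 93 were tested. In Ad-HNF4A 6 were called higher and none lower (6.45%, against 3.46% of all genes), in Ad-K458R 3 higher and none lower (3.23%, against 3.56%). The Ad-K458R share is no higher than that over all genes. Between the vectors edgeR called none, and DESeq2 called AHSG and TFPI2 (against 0.359% of all genes). At an unadjusted p under 0.05 in edgeR there were 21, 15 and 20 of the 93 in the 3 comparisons. The shares over all genes at that threshold were 16.6%, 14.0% and 8.74%. Among 7 tested coagulation proteases, F10 and F12 were called in Ad-HNF4A. Neither was called in Ad-K458R or between the vectors, where adjusted p was 0.48 and 0.54. F10, whose active form antithrombin inhibits, was at 41.2 ± 2.6 CPM in Ad-GFP, 54.0 ± 5.2 in Ad-HNF4A and 45.0 ± 2.3 in Ad-K458R. Its rise in Ad-HNF4A was 0.39 ± 0.09 (adjusted p = 0.036), and the adjusted p reached 0.14 on leaving out a library. F12 was at 16.6 ± 0.92, 25.6 ± 3.9 and 20.8 ± 2.1 CPM, with a rise of 0.63 ± 0.12 (adjusted p = 0.019) and up to 0.081 on leaving out a library. Both calls were lost without Ad-GFP library 1, 2 or 3 or Ad-HNF4A library 1 or 3, and held without Ad-HNF4A library 2. The call on F10 was also lost in the fit of 6 libraries (adjusted p = 0.094).

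Of 5 tested genes of the plasminogen system, PLG, the precursor of plasmin, rose by 0.96 ± 0.19 in Ad-HNF4A (adjusted p = 0.018). PLG was at 7.10 ± 0.26 CPM in Ad-GFP, 13.8 ± 4.5 in Ad-HNF4A and 11.98 ± 0.16 in Ad-K458R, where the difference of 0.76 had an adjusted p of 0.058. The call on PLG was lost without any one of the Ad-GFP libraries 1, 2 or 3, with an adjusted p of up to 0.074, with limma-trend (0.073) and in the fit of 6 libraries (0.064). In that fit PLG was called in Ad-K458R (adjusted p = 0.0038), as it was with DESeq2, no scaling factors and no filter, 4 of 16 alternatives in all. Between the vectors its difference was -0.21 ± 0.19 (adjusted p = 0.81 in edgeR). Of 6 lysosomal cysteine proteases, CTSB rose by 0.45 ± 0.05 and 0.54 ± 0.05 over Ad-GFP (adjusted p = 0.00097 and 0.00019), and CTSS by 1.44 ± 0.15 and 1.52 ± 0.15 (adjusted p = 0.00032 and 0.00015). CTSS, cathepsin S, is also on the macrophage marker list. Among 21 tested inhibitors that are not serpins, TFPI2, a Kunitz-type inhibitor of plasmin, rose by 0.94 ± 0.09 in Ad-HNF4A and 1.38 ± 0.09 in Ad-K458R (adjusted p = 0.00015 and 8.0e-06). edgeR called no member of the 7 complement proteases, 5 transmembrane serine proteases, 5 caspases, 6 clearance receptors, 19 folding and export genes or 12 collagen partners tested, 54 genes in all. At an unadjusted p under 0.05 there were 9, 7 and 9 of the 54 in the 3 comparisons, against 16.6%, 14.0% and 8.74% of all genes. DESeq2 called CASP4 and TMPRSS6 in Ad-HNF4A (against 4.88% of all genes) and EDEM3 in Ad-K458R, while limma-voom and limma-trend called none. None of the 5 leukocyte serine proteases, elastase and cathepsin G among them, passed the filter on low counts. Elastase and cathepsin G are among the proteases that SERPINA1, SERPINA3 and SERPINB1 are known to inhibit.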

How the data were processed

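The authors deposited 1 table of raw read counts and FPKM per human gene for the 9 libraries, per the file headers. The deposited counts were used for all tests, and the deposited FPKM for the order between genes and 1 alternative test. The submitters' processing notes name Trimmomatic and the mouse build mm10. The aligner and the counter are not given there or in the labels used here. Positions in the table are human: 32 of 35 serpins are identical to GENCODE 29 on GRCh38. Library 3 of Ad-K458R was grouped by its description, since its title is misspelt.

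The counts were tested with edgeR 4.0.16 in R 4.3.3 (robust quasi-likelihood F test, TMM scaling, filterByExpr, 9 libraries in 1 fit with a group term). P-values are two-sided and adjusted over 16697 genes, with standard errors derived from the F statistic. Alternatives were DESeq2 1.42.0, limma 3.58.1 (voom, and trend on log2(FPKM + 1)), RLE, upper quartile and no scaling, no filter, a filter of 1 CPM in 3 libraries, fits of 6 libraries, a replicate block and leaving out each library. The edgeR step was tested on simulated counts. No 2 libraries of a group agreed within counting noise (chi-square per gene 9.89 to 16.4). Serpins are named, with values per library for those called and the 10 highest by FPKM, and up to 3 called members per partner list; others given per library were chosen after their values were seen. Members and lists were chosen with earlier results of these data known. Of the tested serpins, 1 is counted in the totals, but its values are not reported here.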

Additional observations from a re-analysis of the deposited data

How the results depend on the processing

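The count of serpins called in Ad-HNF4A against Ad-GFP stayed at 1 except with no filter on low counts, where it was 2 (SERPINB8 added). In Ad-K458R against Ad-GFP it was 4 in the fit of 6 libraries (SERPINB9 among those added) and 1 to 2 on leaving out a library. With DESeq2, with no scaling factors and with no filter it was 3 (SERPINB9 added each time). With limma-trend it was 2, SERPINC1 (higher) and SERPINA11 (lower). Between the vectors it was 1 with DESeq2, through SERPINA3, and 0 on leaving out a library. Partner genes called numbered 3 to 7 on leaving out a library in Ad-HNF4A, 3 being without the second Ad-GFP library, and 5 with DESeq2 and 5 in the fit of 6 libraries in Ad-K458R. Between the vectors 2 partner genes were called with DESeq2. The serpin share without SERPINA1 was 0.115%, 0.122% and 0.131%. Over all alternatives of the tested serpins, 8 values gained a call, 6 lost one (SERPINE2 each time), and 993 kept their side of the threshold. Of these 1007 values, 32 changed sign, none of them called before or after, with sizes of at most 0.28. Over the whole table, the 578 genes called in Ad-HNF4A against Ad-GFP became 351 in the fit of 6 libraries and 344 to 756 on leaving out a library, and the 594 in Ad-K458R against Ad-GFP became 391 to 456. Genes called over the whole table between the vectors numbered 2 with edgeR, 60 with DESeq2, and 2 to 12 on leaving out a library or changing the filter or fit.

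Over all tested genes the replicate numbers gave no sign of pairing. Deviations of same-numbered libraries correlated at -0.039 to 0.046, beside -0.062 to 0.046 for different numbers. These correlations cannot show a pairing that touches only some genes. With the replicate block 1, 2 and 0 serpins were called in the 3 comparisons, and 423, 477 and 2 genes in all. Among the partner genes the calls on F10 and F12 in Ad-HNF4A were lost with the block (adjusted p = 0.068 and 0.056). In other alternatives CASP8, MASP1, C1S, CST3, TIMP2 or P4HA1 gained a call. Depth limits the low members: 1 count is 0.0442 to 0.0626 CPM, so SERPINB8, SERPINA11 and the untested serpins rest on few reads.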
